A study of Danio rerio with 16 samples.

Results

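Whole zebrafish embryos (Danio rerio) injected with a scrambled LNA were compared between 18 and 8 hours post fertilization (hpf), the latest and the earliest time sampled in the study. An LNA, or locked nucleic acid, is a short antisense oligonucleotide with modified sugars. The scrambled LNA was the control for Bik-1 LNA, used in the study to knock down BHIKHARI, an endogenous retrovirus of zebrafish. The comparison was between 4 of the 16 libraries, namely 2 replicates each of Control 18 hpf and Control 8 hpf, chosen by their labels alone. The filter on low counts and the spread behind its tests came from all 16 libraries. All embryos had the genotype labelled WT and all had been injected at 0 hpf, so the controls are injected and not untouched embryos. Beside them stand the Knockdown libraries (Bik-1 LNA, WT) of 8 and 18 hpf, n = 2 each, and Control libraries of 11 and 14 hpf, n = 2 each. No label says whether replicates were separate clutches or injections, and the p-values therefore describe the spread between these libraries, which may be purely technical. Everything counted in the 4 libraries was described, 32520 genes and 1036 repeat families, of which 16894 genes and 862 families passed the filter on low counts and were tested.

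The earlier time lies in gastrulation, when cells internalise and converge to form ectoderm, mesoderm and endoderm under Nodal, BMP, Wnt and FGF signals while RNAs laid down by the mother are still being cleared. The later time lies in the segmentation period, when somites bud off in sequence, the earliest muscle fibres and neurons differentiate, and precursors of blood, vessels, kidney and heart take their places. Endogenous retroviruses are old insertions of viruses whose internal part, with the coding sequence, is flanked by long terminal repeats (LTRs), and in zebrafish many of them are transcribed at defined stages of early development. BHIKHARI was described as active in the mesendoderm of the gastrula.

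The files hold raw counts of polyadenylated RNA. Totals were 6460512 and 6314355 counts in the 8 hpf libraries and 4628787 and 7379975 in the 18 hpf libraries. Levels are given as CPM, or counts scaled to a common library total, after TMM scaling, always for replicate 1 and then replicate 2, and "later" beside a value at 8 hpf means 18 hpf. Because CPM are not corrected for length, levels are compared between times and not between genes. A gene or family is said to have risen or fallen when its adjusted p was under 0.05 in edgeR's quasi-likelihood test, and to have changed over 2-fold when it passed a stricter test against a 2-fold threshold. Log2 fold changes are of 18 hpf over 8 hpf, with their standard error (SE). For a gene with 0 counts in both libraries of a time, the fold is a lower bound that puts 3 counts over the group in place of 0. For 1 to 3 counts it is the ratio of scaled counts with an exact 95% interval that covers counting error only. In whole embryos, fewer cells of a type and less RNA per cell cannot be told apart.

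The labels were checked against marker genes. Among all genes tested 34.6% rose and 26.7% fell. Of 10 gastrula markers 8 fell and none rose. Their summed level was 671 and 970 CPM at 8 hpf and 113 in each library at 18 hpf. GSC, the transcription factor of the dorsal organizer, stood at 61.3 and 67.5 CPM at 8 hpf against 0 and 0.418 later. The mesendoderm regulators mixl1, at 1.31 and 0.17 CPM, and ndr1, at 0 and 0.509 CPM, were at or near 0 already at 8 hpf, so that mixl1 did not pass and ndr1 lay below the filter and was not tested. Of 5 listed markers of differentiated muscle 4 were found, under 5 genes, and all 5 genes rose. The 5 genes of 4 neuron markers and the 3 found of 4 red blood cell markers rose too. Summed levels of the 3 sets were 6.7 and 5.43, 22.2 and 12.9, and 0.327 and 0.339 CPM at 8 hpf. At 18 hpf the same sums were 1290 and 1220, 248 and 235, and 34.2 and 38.3 CPM. The muscle gene TNNT3 (ENSDARG00000068457) had a log2 fold change of 0.99. It was 1.09 and 0.87 without Control 8 hpf replicate 1 or 2, and 0.72 without Control 18 hpf replicate 2, and its call was lost in each.

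Most of the transcriptome differed between the times. Of the 16894 genes tested, 10356 (61.3%) passed, 5851 (34.6%) higher and 4505 (26.7%) lower at 18 hpf. Over 2-fold changes were found in 5065 genes (30.0%), of which 3541 (21.0%) were higher and 1524 (9.02%) lower, so that 69.9% of them were rises. The median log2 fold change over all genes was 0.12, with quartiles of -0.78 and 1.48. Among the 15089 genes with over 3 counts at both times, 698 called genes were over 10-fold higher and 198 over 10-fold lower. Genes with 0 counts at 8 hpf and over 3 counts at 18 hpf numbered 1453, and 580 of these passed. The reverse was seen for 460 genes, of which 81 passed. The libraries of the times did not overlap for 82.1% of genes, which is the background for every statement that the groups were separate. For families it was 65.1%.

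**Figure D1:**
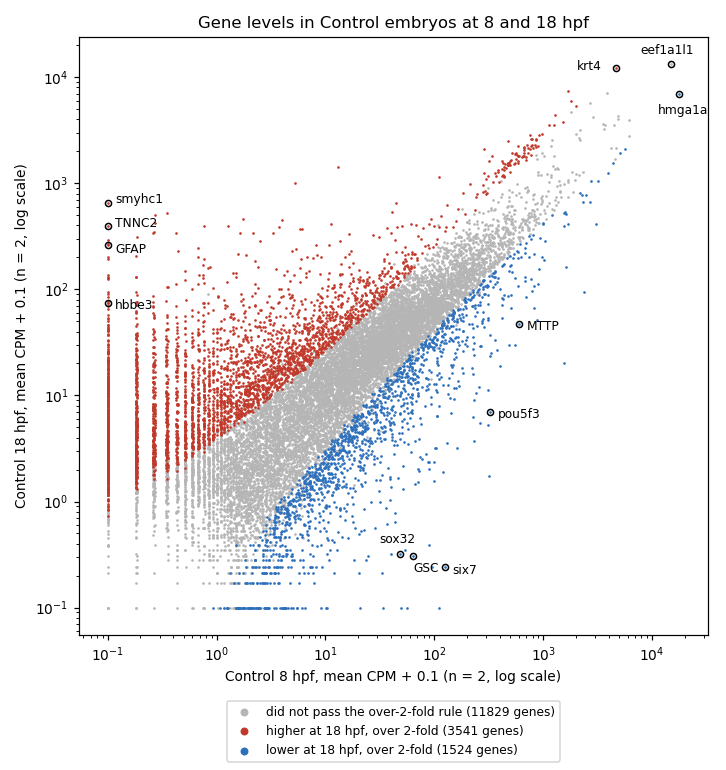
Mean level of each tested gene in Control embryos at 8 hpf (x axis) and 18 hpf (y axis), in CPM + 0.1 on log scales, n = 2 libraries each. Red points are the 3541 genes over 2-fold higher at 18 hpf and blue points the 1524 genes over 2-fold lower. Rises fill the low end of the x axis, where a column of genes at 0 counts includes smyhc1 and TNNC2, and the falls include MTTP, pou5f3 and six7.

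The leading rises of genes with a symbol, ranked by fitted change, stood mainly in the muscle lists. Genes were ranked by fitted log2 fold change among those over 2-fold with at least 10 CPM. They also needed libraries that did not overlap and a symbol other than a clone or accession name. By this rule all 12 leading genes had 0 counts at 8 hpf, and 8 of the 12 stand in the muscle lists. For genes at 0 counts the fitted value depends on a prior count, so the ranking itself favours such genes. Genes with a few counts at 8 hpf, such as actc1b, are not among the 12. The gene smyhc1, a slow muscle myosin heavy chain, had 0 CPM in both libraries at 8 hpf against 647 and 649 later (at least 2590-fold higher at 18 hpf, adjusted p = 3.2e-05). TNNC2, the calcium-binding troponin of fast muscle, had 0 CPM in both libraries at 8 hpf against 402 and 396 later (at least 1590-fold higher at 18 hpf, adjusted p = 9.3e-05). Both had 0 counts in the gastrula libraries and were high in both later ones. A myosin light chain gene, myl13, and a troponin T gene, tnnt2c, went from 0 CPM in both libraries to 309 and 277 CPM and to 266 and 265 CPM. GFAP, the intermediate filament of glia and neural progenitors, had 0 CPM in both libraries at 8 hpf against 261 and 263 later (at least 1050-fold higher at 18 hpf, adjusted p = 1.9e-07). CCN2, a matrix-associated growth factor, reached 93.7 and 87.1 CPM (at least 359-fold higher at 18 hpf, adjusted p = 4.3e-10).

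Among the 12 largest falls were regulators of the gastrula. GSC was down to 0 and 0.418 CPM (a 252-fold lower level at 18 hpf, 95% counting interval 85.9 to 1220, adjusted p = 1.6e-09). The gene sox32, the switch of endoderm fate, had 41.7 and 55.7 CPM at 8 hpf against 0.439 and 0 later (a 285-fold lower level at 18 hpf, 95% counting interval 78.5 to 2360, adjusted p = 1e-06). The gene six7, a homeobox gene, had 129 and 121 CPM at 8 hpf against 0 and 0.278 later (a 734-fold lower level at 18 hpf, 95% counting interval 203 to 6070, adjusted p = 6.5e-09). The gene pnhd, a secreted protein whose Xenopus relative Pinhead acts in mesoderm and the axis, had 52.3 and 54.6 CPM at 8 hpf against 0.219 and 0.278 later (a 209-fold lower level at 18 hpf, 95% counting interval 71.3 to 1020, adjusted p = 1.7e-08). For each of these 4 genes both 8 hpf libraries lay above both 18 hpf libraries, as the rule for naming them required. The other large falls were nnr, ADD3 (ENSDARG00000056250), TMEM233, il23r, cd44a, slc22a5, pnp4a and cart4. Of these, nnr, TMEM233 and il23r had 0 counts at 18 hpf, with bounds of 220, 133 and 80.5-fold. The il23r call (adjusted p = 0.023) was lost without any 1 of the 4 libraries (adjusted p from 0.057 to 0.095).

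Most listed RNAs of the maternal store and of the earliest zygotic programme fell, where 26.7% of all genes fell and 34.6% rose. In the list of maternal and oocyte genes, 2 of 36 tested genes rose, 28 fell and 6 did not pass, with a median log2 fold change of -2.21. EIF4E1B, an oocyte form of the cap-binding protein, had 15.9 and 18.7 CPM at 8 hpf against 0.439 and 0.835 later (log2 fold change -4.64, SE 0.53, adjusted p = 1.7e-06), and without Control 18 hpf replicate 2 the log2 fold change was -5.25. WEE2, the kinase that holds the oocyte in meiosis, had 4.58 and 4.92 CPM at 8 hpf against 0 and 0.278 later (a 27.9-fold lower level at 18 hpf, 95% counting interval 7.37 to 236, adjusted p = 0.00072). The maternal DNA methyltransferase DNMT1 went the other way, 88.6 and 99.9 CPM at 8 hpf against 186 and 210 later (log2 fold change 1.07, SE 0.13, adjusted p = 3.3e-06). The other rise, CNOT7, a deadenylase subunit, passed at an adjusted p of 0.047 and was lost when any 1 library was left out (0.073 to 0.23).

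Of the pluripotency and early zygotic factors, 25 of 34 tested genes fell, 4 rose and 5 did not pass (median -1.53). Among all genes 26.7% fell and 34.6% rose. The gene pou5f3, the zebrafish partner of Nanog and SoxB1 at genome activation, had 254 and 399 CPM at 8 hpf against 6.8 and 6.96 later (log2 fold change -5.56, SE 0.56, adjusted p = 2e-05). The gene foxh1, the transcription factor through which Nodal signals act, had 93.6 and 146 CPM at 8 hpf against 1.76 and 1.81 later (log2 fold change -6.05, SE 0.34, adjusted p = 1.4e-09). HSPB1, a small heat shock protein, had 2160 and 2550 CPM at 8 hpf against 89.1 and 99.5 later (log2 fold change -4.64, SE 0.14, adjusted p = 1.2e-12). All 3 genes were high in both gastrula libraries and low in both later ones. The SoxB1 genes SOX3, SOX2 and sox19a did not follow them. SOX3 rose, from 209 and 208 CPM at 8 hpf to 346 and 321 later (log2 fold change 0.68, SE 0.10, adjusted p = 2.5e-05). SOX2 had 170 and 168 CPM at 8 hpf against 148 and 185 later (log2 fold change -0.02, SE 0.15, adjusted p = 0.91). The gene sox19a had 542 and 546 CPM at 8 hpf against 478 and 538 later (log2 fold change -0.10, SE 0.11, adjusted p = 0.48), and neither passed. A MYC gene also rose, MYC (ENSDARG00000007241), with 13.4 and 6.62 CPM at 8 hpf against 69.8 and 66.5 later (log2 fold change 2.76, SE 0.23, adjusted p = 6.7e-08), while MYCN did not pass, with 188 and 183 CPM at 8 hpf against 165 and 162 later (adjusted p = 0.21).

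Most Nodal signalling and mesendoderm genes fell, where 26.7% of all genes fell and 34.6% rose. Of the 39 tested in this list, 27 were lower, 7 higher and 5 did not pass (median -1.98). When replicate 2 of either time was left out, 4 of them rose. The Nodal ligand ndr2 had 16.8 and 24.8 CPM at 8 hpf against 2.19 and 1.95 later (log2 fold change -3.33, SE 0.41, adjusted p = 3.7e-06). Its co-receptor tdgf1 had 129 and 183 CPM at 8 hpf against 34 and 35.9 later (log2 fold change -2.15, SE 0.20, adjusted p = 1.7e-07). The gene tbxta, the Brachyury gene of the margin and later of notochord and tailbud, had 215 and 290 CPM at 8 hpf against 68.5 and 72.8 later (log2 fold change -1.84, SE 0.19, adjusted p = 1.1e-06). An EOMES gene, EOMES (ENSDARG00000006640), rose instead, from 1.47 and 0.848 CPM at 8 hpf to 18.2 and 17.4 later (log2 fold change 3.91, SE 0.60, adjusted p = 3.7e-05), after levels of 0.326 and 0 CPM at 11 hpf and 0.164 and 0.152 CPM at 14 hpf. SMAD3 (ENSDARG00000036096), a receptor-activated Smad, had 3.43 and 1.19 CPM at 8 hpf against 33.6 and 38.8 later (log2 fold change 3.95, SE 0.32, adjusted p = 3.9e-08), and without Control 8 hpf replicate 1 its log2 fold change was 4.89.

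Dorsoventral genes changed in both directions. Over all genes 34.6% rose and 26.7% fell. Of the BMP and dorsoventral axis genes, 14 of 43 tested rose, 18 fell and 11 did not pass. The dorsal BMP antagonist chrd had 427 and 381 CPM at 8 hpf against 18.7 and 18.8 later (log2 fold change -4.43, SE 0.25, adjusted p = 7e-09) and the organizer ligand admp had 37.8 and 65.2 CPM at 8 hpf against 1.32 and 1.11 later (log2 fold change -5.40, SE 0.51, adjusted p = 5.5e-07). The repressors of dorsal genes vox and ved fell as well. The gene vox had 134 and 173 CPM at 8 hpf against 12.7 and 10.7 later (log2 fold change -3.72, SE 0.20, adjusted p = 5.5e-10). The gene ved had 121 and 220 CPM at 8 hpf against 11.2 and 13.4 later (log2 fold change -3.78, SE 0.30, adjusted p = 2.4e-07). The ligand bmp7a had 42.7 and 90.8 CPM at 8 hpf against 3.95 and 3.2 later (log2 fold change -4.24, SE 0.46, adjusted p = 5.9e-06), or -3.61 without Control 8 hpf replicate 2. Rises in the same list included another ligand, BMP2 (ENSDARG00000013409), with 0.163 and 0.17 CPM at 8 hpf against 2.41 and 3.62 later (a 18.9-fold higher level at 18 hpf, 95% counting interval 4.88 to 162, adjusted p = 0.00014), and the antagonist FST (ENSDARG00000057992), with 0 and 0.339 CPM at 8 hpf against 8.78 and 11.4 later (a 62.4-fold higher level at 18 hpf, 95% counting interval 16.9 to 521, adjusted p = 4.5e-05). Another FST gene, FST (ENSDARG00000052846), did not pass, at a log2 fold change of -0.24, or -0.71 without Control 8 hpf replicate 2. The receptor BMPR1A (ENSDARG00000019728) did not pass, at 171 and 175 CPM at 8 hpf against 141 and 167 later.

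Endoderm genes were divided as well, with 12 higher, 13 lower and 6 not passing of 31 (median -0.02). Over all genes 34.6% rose and 26.7% fell. SOX17, downstream of sox32, had 28.4 and 34.4 CPM at 8 hpf against 1.1 and 0.696 later (log2 fold change -5.16, SE 0.60, adjusted p = 2.8e-06). The tight junction gene cldn3c had 0.981 and 1.02 CPM at 8 hpf against 28.1 and 31.6 later (log2 fold change 4.87, SE 0.45, adjusted p = 1.9e-07). VGLL2, a cofactor of pharyngeal endoderm and muscle, had 0 CPM in both libraries at 8 hpf against 3.29 and 3.9 later (at least 14.7-fold higher at 18 hpf, adjusted p = 0.00022). In the hatching gland and prechordal plate list, 6 of 20 tested rose, 11 fell and 3 did not pass. The genes named here from early patterning fell and the hatching enzymes rose. The secreted Wnt inhibitor frzb had 162 and 160 CPM at 8 hpf against 3.51 and 2.64 later (log2 fold change -5.73, SE 0.43, adjusted p = 2.4e-07), and the Wnt receptor FZD8 (ENSDARG00000038569) had 98.2 and 110 CPM at 8 hpf against 2.85 and 3.34 later (log2 fold change -5.04, SE 0.35, adjusted p = 2.3e-08). The protease genes he1.2 and he1.3, which digest the egg envelope at hatching, rose. The gene he1.2 had 0.163 and 0 CPM at 8 hpf against 48.3 and 42.5 later (a 537-fold higher level at 18 hpf, 95% counting interval 96 to 21300, adjusted p = 1.2e-10). The gene he1.3 had 0 CPM in both libraries at 8 hpf against 23 and 18.1 later (at least 80.1-fold higher at 18 hpf, adjusted p = 1.8e-06). The gene he1.3 was still at 0 CPM in both libraries of 11 hpf and of 14 hpf, whereas he1.2 was at 65.3 and 59 CPM at 11 hpf and 83.7 and 107 CPM at 14 hpf, above its level at 18 hpf.

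Genes listed for the yolk syncytial layer, the nuclei at the yolk surface that feed the embryo, changed in both directions in whole embryos. Of these and the lipoprotein genes, 26 of 47 tested rose, 12 fell and 9 did not pass. Over all genes 34.6% rose and 26.7% fell. MTTP, which loads lipid onto lipoproteins, had 680 and 524 CPM at 8 hpf against 41.9 and 52.2 later (log2 fold change -3.67, SE 0.41, adjusted p = 4.1e-05). GATA6 had 258 and 196 CPM at 8 hpf against 14 and 17.7 later (log2 fold change -3.82, SE 0.38, adjusted p = 8.9e-06). The fibrinogen chain fga had 0 CPM in both libraries at 8 hpf against 51.1 and 48.6 later (at least 198-fold higher at 18 hpf, adjusted p = 1.4e-06), RBP4, the plasma retinol carrier, had 0 CPM in both libraries at 8 hpf against 9.22 and 14.6 later (at least 50.1-fold higher at 18 hpf, adjusted p = 0.0002), and the iron exporter SLC40A1 had 0.163 and 0 CPM at 8 hpf against 36.2 and 32.3 later (a 406-fold higher level at 18 hpf, 95% counting interval 72.5 to 16100, adjusted p = 6.8e-08). Most germ cell genes fell or did not pass. In that list, 2 of 23 tested rose, 10 fell and 11 did not pass, and leaving out Control 8 hpf replicate 1 or either 18 hpf replicate left 1 rise. DDX4, the helicase known as Vasa, had 36.4 and 43.3 CPM at 8 hpf against 5.05 and 4.18 later (log2 fold change -3.12, SE 0.33, adjusted p = 7.8e-07). The gene nanos1 rose, with 2.78 and 1.53 CPM at 8 hpf against 77 and 64.4 later (log2 fold change 5.02, SE 0.34, adjusted p = 6.6e-09); its relative NANOS3 did not pass, at 5.56 and 4.92 CPM at 8 hpf against 2.41 and 4.18 later.

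Genes of gastrulation movement and planar polarity were lower more often than higher. Of these, 17 of 62 tested rose, 30 fell and 15 did not pass (median -0.54), where over all genes 34.6% rose and 26.7% fell. The gene wnt11f2, the ligand that drives convergence and extension, had 81.2 and 90.3 CPM at 8 hpf against 13.6 and 10.7 later (log2 fold change -2.83, SE 0.23, adjusted p = 4.7e-08). GNA13 (ENSDARG00000037924), a G protein alpha subunit, had 20.1 and 35.3 CPM at 8 hpf against 5.05 and 4.32 later (log2 fold change -2.57, SE 0.45, adjusted p = 0.00018). The matrix protease MMP14 (ENSDARG00000002235) rose, from 0.981 and 0.848 CPM at 8 hpf to 34.5 and 28.7 later (log2 fold change 5.07, SE 0.50, adjusted p = 4.1e-07). CDH2, the neural cadherin, had 472 and 428 CPM at 8 hpf against 449 and 434 later and SCRIB, a polarity scaffold, had 218 and 210 CPM at 8 hpf against 213 and 231 later. Neither passed (adjusted p = 0.83 and 0.69). Segmentation clock and presomitic mesoderm genes fell more often than they rose. Of 37 tested, 22 fell, 10 rose and 5 did not pass (median -1.06). The gene cdx1a, a posterior homeobox gene, had 211 and 246 CPM at 8 hpf against 4.83 and 7.52 later (log2 fold change -5.16, SE 0.29, adjusted p = 5.5e-09), and the posterior ligand WNT8A (ENSDARG00000078507) had 57.9 and 87.4 CPM at 8 hpf against 4.17 and 3.34 later (log2 fold change -4.29, SE 0.31, adjusted p = 1.1e-08). A gene of formed somites, UNCX (ENSDARG00000102976), which marks their posterior part in vertebrates, had 0 CPM in both libraries at 8 hpf against 13.4 and 10 later (at least 45.4-fold higher at 18 hpf, adjusted p = 8.1e-07). The Notch ligand dlc did not pass, at 86.8 and 104 CPM at 8 hpf against 96.6 and 131 later.

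**Figure D2:**
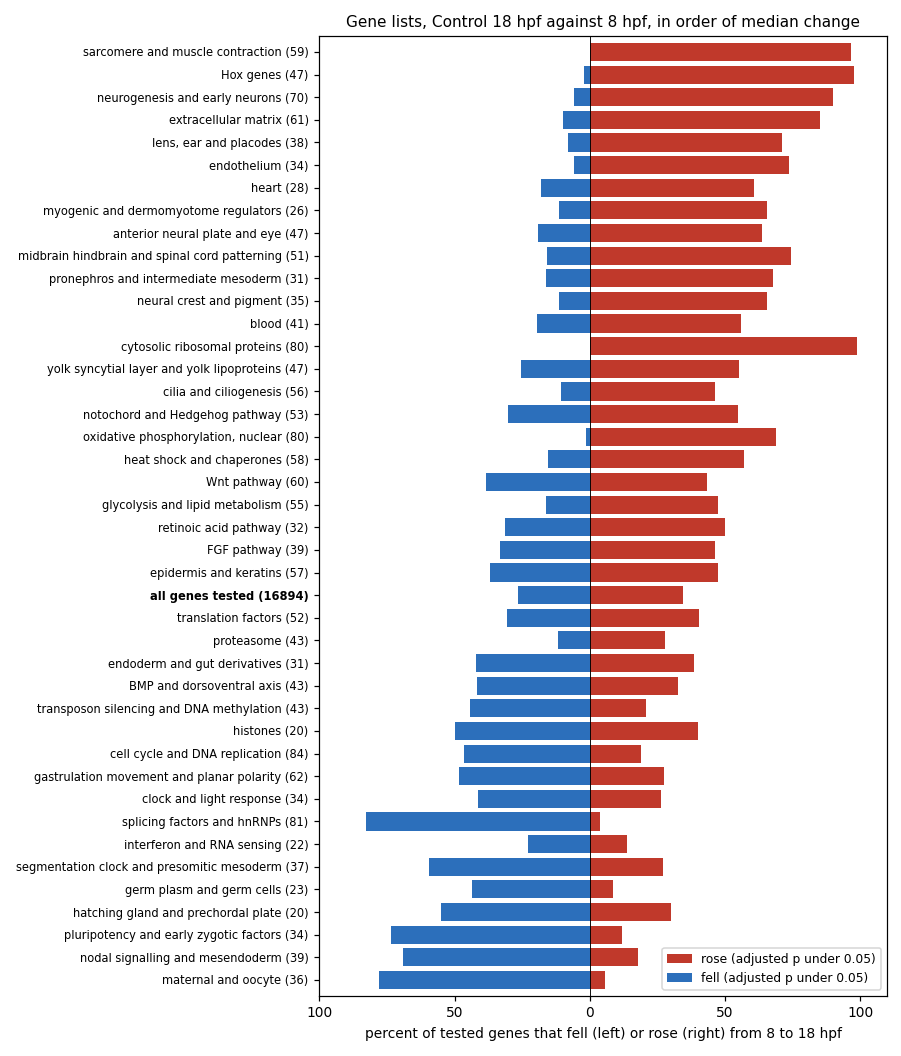
Share of the tested genes of each list shown that rose (red, to the right) or fell (blue, to the left) between Control 8 hpf and 18 hpf at an adjusted p under 0.05, in percent, with the number tested in brackets. Lists are ordered by their median log2 fold change, from 6.85 for sarcomere genes at the top to -2.21 for maternal genes at the bottom, and the bold bar gives all 16894 genes tested, of which 34.6% rose and 26.7% fell.

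The sarcomere list had the highest median of all gene lists. Among all genes tested 34.6% rose, 21.0% over 2-fold, and 26.7% fell. Of the sarcomere genes, 57 of 59 tested rose, 0 fell and 2 did not pass, and 55 rose over 2-fold. The median log2 fold change was 6.85, or 5.99 with genes at 0 counts set to their bounds, since 15 of them had 0 counts at 8 hpf. Together they held 0.0603% and 0.0536% of the scaled counts at 8 hpf and 0.727% and 0.733% at 18 hpf. The gene myhz1.1, a fast myosin heavy chain, had 0 counts at 8 and 11 hpf, 0.164 and 0 CPM at 14 hpf, and 172 and 229 CPM at 18 hpf (at least 827-fold higher at 18 hpf, adjusted p = 3.8e-10). The slow form smyhc1 was at 49.4 and 20 CPM by 11 hpf and at 183 and 177 CPM by 14 hpf. KLHL41 (ENSDARG00000006757), which stabilises sarcomere proteins, had 0 CPM in both libraries at 8 hpf against 130 and 141 later (at least 548-fold higher at 18 hpf, adjusted p = 2.3e-06). SRL (ENSDARG00000104587), a protein of the sarcoplasmic reticulum, had 0 CPM in both libraries at 8 hpf against 123 and 133 later (at least 517-fold higher at 18 hpf, adjusted p = 2.3e-08). The actin gene actc1b, at 0.327 and 0.17 CPM at 8 hpf and 567 and 489 CPM at 18 hpf, stood on 3 counts at 8 hpf (a 2080-fold higher level at 18 hpf, 95% counting interval 711 to 10100, adjusted p = 4.2e-08).

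The regulators above the sarcomere genes rose in part, where over all genes 34.6% rose and 26.7% fell. Of myogenic and dermomyotome regulators, 17 of 26 tested rose, 3 fell and 6 did not pass (median 2.74, or 2.54 with genes at 0 counts set to their bounds). MYOG, the factor of terminal muscle differentiation, had 0 CPM in both libraries at 8 hpf against 117 and 148 later (at least 544-fold higher at 18 hpf, adjusted p = 0.00014). The fusion genes MYMK and mymx rose. MYMK had 0.327 and 0 CPM at 8 hpf against 68 and 103 later (a 538-fold higher level at 18 hpf, 95% counting interval 149 to 4450, adjusted p = 7.4e-09). The gene mymx had 0 CPM in both libraries at 8 hpf against 11.8 and 15.5 later (at least 56.3-fold higher at 18 hpf, adjusted p = 1.3e-05). MYF5, which acts in muscle precursors, did not pass, at 39.2 and 26.3 CPM at 8 hpf against 27.9 and 33.8 later (log2 fold change -0.08, SE 0.20, adjusted p = 0.75). PRDM1, which sets slow muscle fate and is also active in the early margin, fell from 179 and 159 CPM at 8 hpf to 37.7 and 46.8 later (log2 fold change -1.99, SE 0.19, adjusted p = 3.4e-07). FOXC1 fell from 139 and 98.8 CPM at 8 hpf to 39.9 and 41.3 later (log2 fold change -1.55, SE 0.15, adjusted p = 3.1e-07).

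Most genes of the neurogenesis list rose, where over all genes 34.6% rose and 26.7% fell. In the list of neurogenesis and early neurons, 63 of 70 tested rose, 4 fell and 3 did not pass, with a median log2 fold change of 4.39, or 4.14 with genes at 0 counts set to their bounds. ELAVL3 and ELAVL4, RNA-binding proteins of newborn neurons, rose. ELAVL3 had 18.6 and 9.84 CPM at 8 hpf against 155 and 124 later (log2 fold change 3.28, SE 0.23, adjusted p = 2.1e-08). ELAVL4 had 0 and 0.17 CPM at 8 hpf against 34.5 and 40.2 later (a 456-fold higher level at 18 hpf, 95% counting interval 81.5 to 18100, adjusted p = 5.6e-07). NEUROD1, a proneural factor, had 0 CPM in both libraries at 8 hpf against 31.6 and 27.7 later (at least 117-fold higher at 18 hpf, adjusted p = 2.5e-07). PRDM14, a regulator of motor neuron development in zebrafish, fell from 39.2 and 46.3 CPM at 8 hpf to 2.63 and 2.78 later (log2 fold change -3.97, SE 0.45, adjusted p = 1.7e-06). INA (ENSDARG00000011862), annotated to a neuronal filament, fell from 10.3 and 8.48 CPM at 8 hpf to 0.878 and 0.557 later (log2 fold change -3.73, SE 0.59, adjusted p = 4.8e-05). SOX11 (ENSDARG00000095743) did not pass, at 410 and 555 CPM at 8 hpf against 489 and 428 later.

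Most listed patterning genes of the brain rose, where over all genes 34.6% rose and 26.7% fell. Among genes of the anterior neural plate and eye, 30 of 47 tested rose, 9 fell and 8 did not pass (median 2.64, or 2.57 with genes at 0 counts set to their bounds). FEZF1, a forebrain zinc finger gene, had 0 CPM in both libraries at 8 hpf against 22.2 and 20.6 later (at least 84.9-fold higher at 18 hpf, adjusted p = 4.8e-06). The retinal homeobox genes rx3 and rx1 went in opposite directions. The gene rx3, which sets up the eye field, had 32.2 and 23.9 CPM at 8 hpf against 4.83 and 5.99 later (log2 fold change -2.35, SE 0.40, adjusted p = 0.00017), with 65.6 and 84.2 CPM at 11 hpf in between. The gene rx1, of the growing retina, had 0.163 and 0.17 CPM at 8 hpf against 54.2 and 59.4 later (a 345-fold higher level at 18 hpf, 95% counting interval 95.1 to 2850, adjusted p = 4.2e-07). OTX2, of fore- and midbrain, fell from 225 and 191 CPM at 8 hpf to 45.9 and 47.3 later (log2 fold change -2.16, SE 0.13, adjusted p = 1.7e-09). In midbrain, hindbrain and spinal cord, 38 of 51 tested rose, 8 fell and 5 did not pass (median 2.60, or 2.57 with genes at 0 counts set to their bounds). EN2 (ENSDARG00000038868), of the midbrain-hindbrain boundary, had 0 CPM in both libraries at 8 hpf against 52 and 52.1 later (at least 208-fold higher at 18 hpf, adjusted p = 0.00011), and GSX2 and nkx2.2b, which pattern the neural tube from dorsal to ventral, rose. GSX2 had 0 CPM in both libraries at 8 hpf against 13.4 and 13.2 later (at least 53.2-fold higher at 18 hpf, adjusted p = 8.2e-06). The gene nkx2.2b had 0 CPM in both libraries at 8 hpf against 11 and 12.1 later (at least 46.7-fold higher at 18 hpf, adjusted p = 3.8e-07). The early genes irx7 and GBX1 fell, irx7 from 188 and 176 CPM at 8 hpf to 16 and 16.6 later (log2 fold change -3.48, SE 0.17, adjusted p = 2.2e-10) and GBX1 from 58.2 and 70.8 CPM at 8 hpf to 12.7 and 19.9 later (log2 fold change -1.96, SE 0.27, adjusted p = 1.3e-05).

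Hox genes, which give positional identity along the body, rose in 46 of 47 tested genes and fell in 1 (median 4.79, or 3.94 with genes at 0 counts set to their bounds). Among all genes 34.6% rose and 26.7% fell. Of the 23 genes of paralog groups 9 to 13, which act in the posterior body, 10 had 0 counts at 8 hpf, against 1 of 13 in groups 1 to 4 and none of 12 in groups 5 to 8, and all 22 that were tested rose. Their summed level was 64.6 and 44.6 CPM at 8 hpf. By 11 hpf it was 379 and 341 CPM, by 14 hpf 419 and 437 CPM, and by 18 hpf 630 and 649 CPM. HOXD12 had 0 CPM in both libraries at 8 hpf against 39.3 and 44 later (at least 169-fold higher at 18 hpf, adjusted p = 0.00038). HOXC11 had 0 CPM in both libraries at 8 hpf against 20 and 25.8 later (at least 94.1-fold higher at 18 hpf, adjusted p = 9.9e-08). Groups 1 to 4 held 339 and 236 CPM at 8 hpf and 662 and 794 CPM at 18 hpf. There hoxa2b had 0 CPM in both libraries at 8 hpf against 32 and 34.8 later (at least 135-fold higher at 18 hpf, adjusted p = 4.8e-08), and hoxb1b, an early hindbrain gene, was the gene that fell, from 202 and 174 CPM at 8 hpf to 68 and 96.2 later (log2 fold change -1.19, SE 0.15, adjusted p = 6.5e-06).

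Neural crest and pigment genes rose in 23 of 35, fell in 4 and did not pass in 8 (median 2.27). Among all genes 34.6% rose and 26.7% fell. SOX10, the factor of migrating crest, had 0.327 and 0.509 CPM at 8 hpf against 38.2 and 38.1 later (log2 fold change 6.45, SE 0.79, adjusted p = 3.6e-05). The pigment enzyme genes DCT and gch2, of melanin and pteridine synthesis, rose. DCT had 0 CPM in both libraries at 8 hpf against 4.17 and 1.95 later (at least 11.3-fold higher at 18 hpf, adjusted p = 0.0022). The gene gch2 had 0.163 and 0 CPM at 8 hpf against 9 and 11.8 later (a 129-fold higher level at 18 hpf, 95% counting interval 22.7 to 5130, adjusted p = 0.00012), and DCT was at 0 CPM at 11 and 14 hpf as well. TFAP2A, shared by crest and epidermis, fell from 233 and 343 CPM at 8 hpf to 113 and 154 later (log2 fold change -1.10, SE 0.18, adjusted p = 0.0001). The gene snai1b did not pass, at 134 and 113 CPM at 8 hpf against 107 and 131 later. Of lens, ear and placode genes, 27 of 38 tested rose, 3 fell and 8 did not pass (median 3.52, or 3.39 with genes at 0 counts set to their bounds). HMX3 and ATOH1, of the ear and lateral line, rose. HMX3 had 0 CPM in both libraries at 8 hpf against 6.8 and 7.93 later (at least 30-fold higher at 18 hpf, adjusted p = 8.6e-06). ATOH1 had 0 CPM in both libraries at 8 hpf against 12.3 and 14.9 later (at least 55.6-fold higher at 18 hpf, adjusted p = 6.2e-06). The gene foxi1, which is needed for otic placode and ionocytes, fell from 49.7 and 86.2 CPM at 8 hpf to 9 and 8.35 later (log2 fold change -2.97, SE 0.37, adjusted p = 1.2e-05). The gene stm, whose protein builds otoliths, fell from 815 and 973 CPM at 8 hpf to 76.4 and 146 later (log2 fold change -3.0, SE 0.33, adjusted p = 2.4e-05).

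Epidermis and keratin genes changed in both directions, as did all genes, of which 34.6% rose and 26.7% fell. Here 27 of 57 tested rose, 21 fell and 9 did not pass (median 0.47). The gene krt4, a keratin of the outer layer, had 4520 and 4900 CPM at 8 hpf against 10800 and 13300 later (log2 fold change 1.36, SE 0.17, adjusted p = 1.5e-05). The gene cyt1, another, had 524 and 665 CPM at 8 hpf against 2080 and 2400 later (log2 fold change 1.92, SE 0.26, adjusted p = 8.5e-05). Both krt97 and lye fell, krt97 from 905 and 1070 CPM at 8 hpf to 201 and 200 later (log2 fold change -2.30, SE 0.28, adjusted p = 2.9e-05) and lye from 730 and 809 CPM at 8 hpf to 116 and 133 later (log2 fold change -2.62, SE 0.18, adjusted p = 1.3e-08). The gene krt92 did not pass, at 337 and 544 CPM at 8 hpf against 450 and 499 later. The gene krt1-19e had 0 CPM in both libraries until 11 hpf. By 14 hpf it had 0.983 and 1.21 CPM, and by 18 hpf 14 and 10.4 CPM (at least 47.4-fold higher at 18 hpf, adjusted p = 2.8e-05).

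The blood, vessel, heart and kidney lists each held more rises than falls, where over all genes 34.6% rose and 26.7% fell. Of the blood genes, 23 of 41 tested rose, 8 fell and 10 did not pass, and without Control 18 hpf replicate 2 the falls numbered 5. The gene hbbe3, an embryonic beta globin, had 0 CPM in both libraries at 8 hpf against 88.7 and 61.4 later (at least 288-fold higher at 18 hpf, adjusted p = 1.4e-06). The gene alas2, the heme enzyme of red cells, had 0.163 and 0.17 CPM at 8 hpf against 19.1 and 21.6 later (a 124-fold higher level at 18 hpf, 95% counting interval 33.9 to 1030, adjusted p = 8.3e-07). TAL1, which starts blood and endothelium, had 0.163 and 0.17 CPM at 8 hpf against 51.8 and 57.3 later (a 331-fold higher level at 18 hpf, 95% counting interval 91.4 to 2740, adjusted p = 0.00057) and was already at 47.7 and 13.5 CPM at 11 hpf. GATA2 fell from 119 and 174 CPM at 8 hpf to 16 and 20.9 later (log2 fold change -2.97, SE 0.26, adjusted p = 3.7e-07). In endothelium, 25 of 34 tested rose, 2 fell and 7 did not pass (median 3.31). EGFL7 had 0.163 and 0 CPM at 8 hpf against 18.7 and 24.6 later (a 268-fold higher level at 18 hpf, 95% counting interval 47.7 to 10600, adjusted p = 1.3e-07) and the VEGF receptor flt1 had 0 CPM in both libraries at 8 hpf against 3.73 and 2.64 later (at least 12.3-fold higher at 18 hpf, adjusted p = 0.00043). Among heart genes, 17 of 28 tested rose, 5 fell and 6 did not pass. MYL7 and cmlc1, light chains of heart muscle, rose. MYL7 had 0.163 and 0 CPM at 8 hpf against 17.8 and 22 later (a 245-fold higher level at 18 hpf, 95% counting interval 43.5 to 9700, adjusted p = 3.5e-06). The gene cmlc1 had 0 CPM in both libraries at 8 hpf against 10.1 and 9.88 later (at least 39.9-fold higher at 18 hpf, adjusted p = 1.6e-05). Both genes were at or near 0 CPM up to and including 14 hpf. GATA5, an early regulator of heart and endoderm, fell from 92.5 and 94.3 CPM at 8 hpf to 16.2 and 16.8 later (log2 fold change -2.49, SE 0.22, adjusted p = 1.3e-07). Pronephros and intermediate mesoderm genes rose in 21 of 31 and fell in 5. CDH17, a cadherin of the kidney duct, had 0.327 and 0.679 CPM at 8 hpf against 30.3 and 35.5 later (log2 fold change 5.99, SE 0.65, adjusted p = 1.4e-06), and the sodium pump gene atp1a1a.4 had 0.163 and 0.17 CPM at 8 hpf against 35.8 and 43 later (a 241-fold higher level at 18 hpf, 95% counting interval 66.5 to 2000, adjusted p = 1.2e-07).

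Notochord and Hedgehog genes rose in 29 of 53 and fell in 16 (median 0.86), where over all genes 34.6% rose and 26.7% fell. The gene col9a1b, a collagen of notochord and cartilage, had 0.327 and 0 CPM at 8 hpf against 327 and 345 later (a 2030-fold higher level at 18 hpf, 95% counting interval 561 to 16800, adjusted p = 2.8e-12). MATN4 and CA6 rose. MATN4 had 0.163 and 0 CPM at 8 hpf against 53.5 and 72.2 later (a 781-fold higher level at 18 hpf, 95% counting interval 140 to 30900, adjusted p = 2.4e-07). CA6 had 0 CPM in both libraries at 8 hpf against 25.7 and 24.1 later (at least 98.9-fold higher at 18 hpf, adjusted p = 5.6e-07). The gene noto, which holds notochord fate in the gastrula, fell from 48.9 and 72.1 CPM at 8 hpf to 9.44 and 7.8 later (log2 fold change -2.82, SE 0.29, adjusted p = 5e-07). The gene foxa3 fell from 160 and 171 CPM at 8 hpf to 13.2 and 14.2 later (log2 fold change -3.59, SE 0.28, adjusted p = 1.3e-07). GLI1, a readout of Hedgehog signalling, did not pass, at 63.9 and 57.4 CPM at 8 hpf against 71.1 and 72.5 later. Extracellular matrix genes rose in 52 of 61 and fell in 6 (median 4.33, or 4.31 with genes at 0 counts set to their bounds). AGRN, a basement membrane proteoglycan, had 0.49 and 0.339 CPM at 8 hpf against 138 and 157 later (log2 fold change 8.40, SE 0.65, adjusted p = 6.9e-07). THBS4 (ENSDARG00000020072), of muscle attachments, had 0 CPM in both libraries at 8 hpf against 67.4 and 71.3 later (at least 279-fold higher at 18 hpf, adjusted p = 1.2e-09). The 6 falls included the fibronectin gene FN1 (ENSDARG00000019815), with 439 and 393 CPM at 8 hpf against 86.5 and 78.5 later (log2 fold change -2.34, SE 0.11, adjusted p = 2.2e-10), and LAMA1, with 380 and 342 CPM at 8 hpf against 121 and 100 later (log2 fold change -1.71, SE 0.13, adjusted p = 2.1e-08).

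The signalling pathways mixed rises and falls, as did all genes, of which 34.6% rose and 26.7% fell. Of Wnt pathway genes, 26 of 60 tested rose, 23 fell and 11 did not pass. SP8 (ENSDARG00000011870), a zinc finger factor downstream of Wnt and FGF signals in vertebrate limbs, had 0 and 0.17 CPM at 8 hpf against 75.7 and 67.2 later (a 847-fold higher level at 18 hpf, 95% counting interval 152 to 33500, adjusted p = 4.1e-08). WNT7A (ENSDARG00000044827) had 0.163 and 0.17 CPM at 8 hpf against 21.9 and 28 later (a 154-fold higher level at 18 hpf, 95% counting interval 42.3 to 1280, adjusted p = 1.5e-06), whereas APC, of the destruction complex, did not pass, at 116 and 105 CPM at 8 hpf against 88.9 and 106 later. Of FGF pathway genes, 18 of 39 tested rose, 13 fell and 8 did not pass. FGF10 (ENSDARG00000030932) had 0.163 and 0 CPM at 8 hpf against 7.9 and 8.63 later (a 100-fold higher level at 18 hpf, 95% counting interval 17.6 to 4000, adjusted p = 4.6e-05). The gene fgf24 fell from 21.7 and 23.4 CPM at 8 hpf to 5.49 and 5.85 later (log2 fold change -1.99, SE 0.35, adjusted p = 0.00013). SPRY2, a feedback inhibitor, did not pass, at 82 and 72.5 CPM at 8 hpf against 93 and 88.5 later. Of retinoic acid genes, 16 of 32 tested rose, 10 fell and 6 did not pass. CYP26A1, which degrades retinoic acid, fell from 307 and 336 CPM at 8 hpf to 25.9 and 20.6 later (log2 fold change -3.80, SE 0.26, adjusted p = 5.1e-08), and the binding protein gene CRABP2 (ENSDARG00000030449) fell from 711 and 944 CPM at 8 hpf to 72.4 and 62.1 later (log2 fold change -3.62, SE 0.41, adjusted p = 4.7e-05). The nuclear receptor NR2F1 (ENSDARG00000017168) rose, from 0 and 0.17 CPM at 8 hpf to 65.8 and 87.4 later (a 949-fold higher level at 18 hpf, 95% counting interval 170 to 37500, adjusted p = 1.5e-07).

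Ribosomal protein genes rose and most splicing genes fell, where over all genes 34.6% rose, 21.0% over 2-fold, and 26.7% fell. Of cytosolic ribosomal protein genes, 79 of 80 tested rose, 0 fell and 1 did not pass (median 1.61), and 76 rose over 2-fold. They held 4.55% and 4.59% of scaled counts at 8 hpf and 13.9% and 14.8% at 18 hpf. RPLP0, of the ribosome's stalk, had 1680 and 1690 CPM at 8 hpf against 7180 and 7620 later (log2 fold change 2.14, SE 0.25, adjusted p = 2.2e-05). RPL5 (ENSDARG00000020197) had 462 and 480 CPM at 8 hpf against 2330 and 2680 later (log2 fold change 2.41, SE 0.17, adjusted p = 2.2e-08). Splicing factors and hnRNPs fell in 67 of 81, rose in 3 and did not pass in 11 (median -0.89). Their share of scaled counts went from 4.94% and 5.6% to 2.75% and 2.66%. Both hnrnpa0l and khdrbs1a, RNA-binding proteins among the genes with most counts at 8 hpf, fell. The gene hnrnpa0l had 4930 and 6290 CPM at 8 hpf against 2130 and 2100 later (log2 fold change -1.41, SE 0.11, adjusted p = 3.2e-08). The gene khdrbs1a had 4610 and 5560 CPM at 8 hpf against 1930 and 1900 later (log2 fold change -1.41, SE 0.12, adjusted p = 4.6e-08). An hnRNP gene that rose, HNRNPK (ENSDARG00000007034), had 72.2 and 58.7 CPM at 8 hpf against 160 and 166 later (log2 fold change 1.32, SE 0.12, adjusted p = 1.4e-07).

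Translation factors lay nearer the background of all genes, of which 34.6% rose and 26.7% fell. Of 52 translation factors tested, 21 rose, 16 fell and 15 did not pass. The gene eef1a1l1, the elongation factor with the second most counts at 8 hpf, did not pass, at 13800 and 16100 CPM at 8 hpf against 12700 and 13700 later (adjusted p = 0.16), although it passed at 0.05 without Control 8 hpf replicate 1. The gene eif4a1b had 42.7 and 43.6 CPM at 8 hpf against 307 and 279 later (log2 fold change 2.76, SE 0.13, adjusted p = 1.7e-10). The gene eef2b had 1840 and 2140 CPM at 8 hpf against 5080 and 5650 later (log2 fold change 1.43, SE 0.12, adjusted p = 4.5e-08). PABPC4, a poly(A)-binding protein also listed with muscle, had 0 CPM in both libraries at 8 hpf against 94.8 and 93.1 later (at least 375-fold higher at 18 hpf, adjusted p = 3.5e-10). PABPC1L, a related form of egg and ovary, had 2.78 and 3.05 CPM at 8 hpf against 0 in both later (at least 11.4-fold lower at 18 hpf, adjusted p = 0.00041). Nuclear genes of oxidative phosphorylation rose in 55 of 80, 12 of them over 2-fold (median 0.76). SDHD (ENSDARG00000030139) had 6.05 and 6.96 CPM at 8 hpf against 50 and 38 later (log2 fold change 2.75, SE 0.33, adjusted p = 3.4e-06). The 1 fall, UQCRFS1, from 137 and 139 CPM at 8 hpf to 117 and 107 later, passed at an adjusted p of 0.028 and did not pass when either replicate of 8 hpf or replicate 2 of 18 hpf was left out (0.055 to 0.15). Most proteasome genes did not pass. There 12 of 43 tested rose, 5 fell and 26 did not pass, and without Control 18 hpf replicate 1 the rises were 7, without replicate 2 the falls were 3.

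Chromatin genes changed in both directions, as did all genes, of which 34.6% rose and 26.7% fell. The gene hmga1a, a DNA-bending protein with more counts than any other gene at 8 hpf, fell from 17100 and 18700 CPM at 8 hpf to 7350 and 6520 later (log2 fold change -1.37, SE 0.10, adjusted p = 8.4e-09). Of 20 histone genes and chaperones 8 rose, 10 fell and 2 did not pass. The histone variant gene MACROH2A1 had 49.5 and 66.3 CPM at 8 hpf against 1.97 and 4.87 later (log2 fold change -3.99, SE 0.32, adjusted p = 3.4e-08), or -4.88 without Control 18 hpf replicate 2, and its relative MACROH2A2 had 59.5 and 55.8 CPM at 8 hpf against 203 and 229 later (log2 fold change 1.90, SE 0.12, adjusted p = 3.2e-09). The gene npm1a, a nucleolar histone chaperone, fell from 2110 and 2460 CPM at 8 hpf to 831 and 728 later (log2 fold change -1.55, SE 0.12, adjusted p = 3.6e-08). Of transposon silencing and DNA methylation genes, 9 of 43 tested rose, 19 fell and 15 did not pass, and with replicate 2 of 18 hpf or of 8 hpf left out the falls were 12 and 11. The gene tet3, which oxidises methylated cytosine, had 2.29 and 2.38 CPM at 8 hpf against 158 and 166 later (log2 fold change 6.11, SE 0.31, adjusted p = 1.3e-09). The methyltransferase genes named here went separate ways. DNMT3A (ENSDARG00000015566) had 1.96 and 2.88 CPM at 8 hpf against 41.5 and 46.5 later (log2 fold change 4.18, SE 0.36, adjusted p = 7.1e-08). The gene dnmt3bb.2 fell from 356 and 413 CPM at 8 hpf to 119 and 136 later (log2 fold change -1.59, SE 0.13, adjusted p = 4.9e-08). The gene dnmt3ba did not pass, at 344 and 390 CPM at 8 hpf against 367 and 342 later.

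Cell cycle genes fell more often than they rose, where over all genes 34.6% rose and 26.7% fell. Here 16 of 84 tested rose, 39 fell and 29 did not pass (median -0.35), and 6 falls and 3 rises were over 2-fold. Without Control 8 hpf replicate 1 the rises were 10. PCNA, the replication clamp, did not pass, at 686 and 780 CPM at 8 hpf against 874 and 797 later, and cks2, a partner of cyclin-dependent kinases, rose from 2.45 and 3.73 CPM at 8 hpf to 11.4 and 14.6 later (log2 fold change 2.08, SE 0.39, adjusted p = 0.00027). Heat shock and chaperone genes rose in 33 of 58 and fell in 9. The gene hsp90aa1.1, the Hsp90 of striated muscle, was at 6.21 and 1.53 CPM at 8 hpf against 448 and 459 later (log2 fold change 6.85, SE 0.40, adjusted p = 9.9e-08), or 8.17 and 6.17 without Control 8 hpf replicate 1 or 2. HSPB8 had 3.11 and 1.7 CPM at 8 hpf against 65.6 and 63.1 later (log2 fold change 4.73, SE 0.35, adjusted p = 1.9e-08). The gene hsf1, the heat shock factor, fell from 68.5 and 75.5 CPM at 8 hpf to 18.7 and 14.9 later (log2 fold change -2.11, SE 0.46, adjusted p = 0.0023). Of glycolysis and lipid genes, 26 of 55 tested rose, 9 fell and 20 did not pass. An aldolase gene, ALDOA (ENSDARG00000034470), had 0 CPM in both libraries at 8 hpf against 87.6 and 81.6 later (at least 336-fold higher at 18 hpf, adjusted p = 8.6e-09) while its paralog ALDOA (ENSDARG00000011665) did not pass, at 436 and 452 CPM at 8 hpf against 380 and 388 later.

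Cilia genes rose in 26 of 56 and fell in 6, where over all genes 34.6% rose and 26.7% fell. TUBA1A, an alpha tubulin, had 46.6 and 35.6 CPM at 8 hpf against 605 and 470 later (log2 fold change 3.71, SE 0.19, adjusted p = 8e-10). CCDC39, of motile cilia, had 0.163 and 0 CPM at 8 hpf against 4.83 and 2.78 later (a 43-fold higher level at 18 hpf, 95% counting interval 7.3 to 1740, adjusted p = 0.00018). Circadian clock and light response genes rose in 9 and fell in 14 of 34. The gene cry5, a photolyase relative, fell from 36.4 and 60.2 CPM at 8 hpf to 6.8 and 6.4 later (log2 fold change -2.87, SE 0.29, adjusted p = 5.4e-07). BHLHE40, a repressor of the clock, had 0.654 and 1.02 CPM at 8 hpf against 48.1 and 35.9 later (log2 fold change 5.62, SE 0.46, adjusted p = 4.8e-08). The gene sesn3, a stress-response sestrin, fell from 543 and 431 CPM at 8 hpf to 29.6 and 30.2 later (log2 fold change -4.02, SE 0.32, adjusted p = 8.4e-07). The gene bcl2l10, of the Bcl-2 family, fell from 272 and 182 CPM at 8 hpf to 44.8 and 42.2 later (log2 fold change -2.38, SE 0.20, adjusted p = 6.4e-08). Interferon and RNA sensing genes mostly did not pass, and 3 of 22 tested rose, 5 fell and 14 did not pass. With replicate 1 of 8 hpf or replicate 2 of 18 hpf left out the falls were 3. The gene isg15, a ubiquitin-like protein induced by interferon, had 6.54 and 4.24 CPM at 8 hpf against 0 in both later (at least 21.2-fold lower at 18 hpf, adjusted p = 5.4e-05).

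Repeat families were counted beside the genes, with the counts of all copies of a family summed. They held 12.42% and 8.94% of counts at 8 hpf and 5.85% and 6.52% at 18 hpf. Of 862 tested families 302 passed (35.0%), 126 (14.6%) higher and 176 (20.4%) lower, and 64 (7.42%) changed over 2-fold, 28 (3.25%) up and 36 (4.18%) down. The balance turned without Control 18 hpf replicate 1 and kept its direction without any other single library of the comparison, Control 8 hpf replicate 1 included. Without Control 18 hpf replicate 1, 123 families were higher and 112 lower, and 24 and 22 over 2-fold. Without Control 18 hpf replicate 2 it was 69 and 149, and 17 and 36 over 2-fold. Without Control 8 hpf replicate 2 it was 65 and 137, and 15 and 27 over 2-fold. The median log2 fold change of families was -0.04, or 0.012 when scaled by library totals, and that of genes 0.12. The loss of share lay in the LTR class, at 8.09% and 4.76% of counts at 8 hpf and 1.91% and 2.12% at 18 hpf, whereas DNA transposons held 3.56% and 3.44% and then 3.27% and 3.62%. With 2 libraries against 2, an exact permutation test cannot go below a p of 0.333, so no test was made of these shares. Without ERV1-N3-I_DR, the family with most counts, the LTR class fell by 1.97 percentage points in place of 4.41. Of the 64 families changed over 2-fold, 22 rises and 30 falls were LTR families, which made up 353 of the 862 tested. DNA transposons made up 402, with 4 rises and 4 falls over 2-fold. Without Control 8 hpf replicate 2, 42 families changed over 2-fold.

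BHIKHARI fell steeply. Its LTR, counted as BHIKHARI_LTR, had 2800 and 2820 CPM at 8 hpf against 98.7 and 104 later (log2 fold change -4.79, SE 0.16, adjusted p = 2.8e-12). The internal part BHIKHARI_I-int had 1990 and 2070 CPM at 8 hpf against 38.4 and 27.6 later (log2 fold change -5.96, SE 0.44, adjusted p = 2.1e-06). At both times the replicates lay close together and far from those of the other time. BHIKHARI-3 fell even further, its internal part BHIKHARI-3-I_DR from 434 and 445 CPM at 8 hpf to 3.07 and 1.95 later (log2 fold change -7.50, SE 0.53, adjusted p = 8.6e-07) and its LTR BHIKHARI-3-LTR_DR from 768 and 715 CPM at 8 hpf to 10.3 and 8.07 later (log2 fold change -6.35, SE 0.69, adjusted p = 5.8e-05). The other relatives had other courses. BHIKHARI-2-I_DR rose, from 31.7 and 11.2 CPM at 8 hpf to 90 and 116 later (log2 fold change 2.26, SE 0.44, adjusted p = 0.0013), or 3.18 without Control 8 hpf replicate 1, while BHIKHARI-2-LTR_DR did not pass at 356 and 366 CPM at 8 hpf against 320 and 395 later. BHIKHARI-5-I_DR fell, from 53.4 and 66.2 CPM at 8 hpf to 27.6 and 20.3 later (log2 fold change -1.33, SE 0.33, adjusted p = 0.0036), after 81.2 and 88.1 CPM at 14 hpf, and BHIKHARI-5-LTR_DR did not pass. Neither part of BHIKHARI-4 passed. BHIKHARI-4-I_DR, at 1.14 and 0.679 CPM at 8 hpf against 1.1 and 5.01 later, had an adjusted p of 0.081, and of 0.031 without Control 18 hpf replicate 1.

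ERV1-N3-I_DR, the family with most counts at both times, differed between the 8 hpf libraries. It had 42800 and 19700 CPM at 8 hpf against 5070 and 5270 later (log2 fold change -2.60, SE 0.42, adjusted p = 0.00068), and its log2 fold change was -1.96 without Control 8 hpf replicate 1, the higher library. ERV1-N3-LTR_DR had 9450 and 4210 CPM at 8 hpf against 1870 and 2140 later (log2 fold change -1.77, SE 0.46, adjusted p = 0.0096), but it did not pass when replicate 1 of 8 hpf was left out (-1.09, adjusted p = 0.071), nor when replicate 1 of 18 hpf was (-1.67, adjusted p = 0.06). ERV1-N3B-LTR_DR had 6340 and 2630 CPM at 8 hpf against 927 and 837 later (log2 fold change -2.35, SE 0.50, adjusted p = 0.0035), or -1.60 without Control 8 hpf replicate 1. Other retroviral families with high levels in both 8 hpf libraries fell too. ERV1-N6-I_DR had 1100 and 1340 CPM at 8 hpf against 7.02 and 11.3 later (log2 fold change -7.01, SE 0.43, adjusted p = 3.2e-07). ERV1-N4-I_DR had 3190 and 2540 CPM at 8 hpf against 109 and 114 later (log2 fold change -4.68, SE 0.49, adjusted p = 4e-05). ERV2_DR-I had 5420 and 3860 CPM at 8 hpf against 208 and 216 later (log2 fold change -4.45, SE 0.35, adjusted p = 1.9e-06). ERV1_DR-I had 531 and 745 CPM at 8 hpf against 29.4 and 18.5 later (log2 fold change -4.76, SE 0.66, adjusted p = 0.00027).

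Another set of retroviral families rose. ERV1-2-I_DR, of the foamy virus type, had 0 CPM in both libraries at 8 hpf against 63.6 and 83 later (at least 302-fold higher at 18 hpf, adjusted p = 1.1e-06). ERV1-N8-I_DR had 204 and 125 CPM at 8 hpf against 1880 and 2430 later (log2 fold change 3.71, SE 0.60, adjusted p = 0.00074), and its LTR, ERV1-N8-LTR_DR, had 9.48 and 12 CPM at 8 hpf against 120 and 115 later (log2 fold change 3.45, SE 0.65, adjusted p = 0.0016). ERV1-N1-I_DR had 36.8 and 29.2 CPM at 8 hpf against 311 and 330 later (log2 fold change 3.28, SE 0.15, adjusted p = 1.6e-10). ZFERV_I-int, the internal part of the zebrafish retrovirus ZFERV, had 1.8 and 0.509 CPM at 8 hpf against 9.87 and 16.7 later (log2 fold change 3.51, SE 0.53, adjusted p = 3.2e-05), or 4.64 and 2.87 without Control 8 hpf replicate 1 or 2. ERV5_DR_LTR passed at 11.9 and 4.58 CPM at 8 hpf against 115 and 165 later (log2 fold change 4.07, adjusted p = 0.015), but not with replicate 2 of 8 hpf (0.097) or of 18 hpf (0.051) left out, and the value was 4.90 with replicate 1 of 8 hpf left out. ERV1-1-I_DR passed at 0.04 and not without any 1 of the 4 libraries (0.063 to 0.18). By the files' own annotation, which gives ERV1-N3-I_DR, ERV1-N4-I_DR and ERV1-N6-I_DR no superfamily below LTR, over the ERV1 superfamily 14 of 26 tested families rose and 5 fell, with a median log2 fold change of 1.24. In the Gypsy superfamily 17 of 219 rose and 55 fell (median -0.18), and in Pao 7 of 46 rose and 11 fell. In the DNA transposons of the Tc1 type 8 of 26 rose and none fell, none of the 8 over 2-fold. Over all families 14.6% rose and 20.4% fell, and Pao lay near these shares. Harbinger2_DR, a DNA transposon, had 0 and 0.679 CPM at 8 hpf against 9.87 and 14.5 later, and its log2 fold change of 5.11 was 4.11 without Control 8 hpf replicate 1. All of its 4 counts at 8 hpf were in replicate 2. Without that library the fitted value was 9.23, which depends on the prior count.

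**Figure D3:**
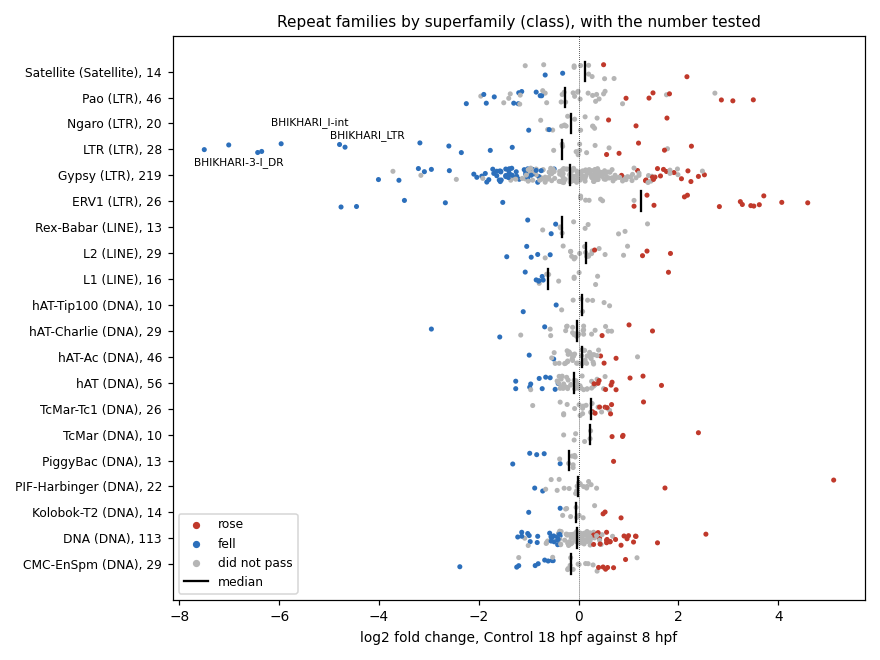
Log2 fold change of each tested repeat family between Control 8 hpf and 18 hpf (x axis), by superfamily and class (y axis, superfamilies with at least 10 tested families), each point a family and the black bar the median. The DNA transposons gather around 0, while the ERV1 families spread from -4.76 for ERV1_DR-I past 3.71 for ERV1-N8-I_DR, and BHIKHARI-3-I_DR lies farthest to the left at -7.50.

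An internal part and its LTR come from the same insertions, although LTRs also stand alone in the genome. Of 113 pairs in which both were tested, both passed in 27, of which 10 were higher in both parts, 15 lower in both and 2 opposite. In 44 pairs 1 part passed and in 42 none. ERV1-N1 was an opposite pair, with a log2 fold change of 3.28 for ERV1-N1-I_DR and -1.52 for ERV1-N1-LTR_DR, a family named after its values were seen.

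The libraries of 11 and 14 hpf show when the changes took place. Of the 3541 genes over 2-fold higher at 18 hpf, 72.3% fell at no step of the means. Of the 1524 over 2-fold lower, 78.4% rose at no step. Steps without change were allowed in both. The median riser had gone 44.4% of its way by 11 hpf and 69.0% by 14 hpf, and the median faller 47.4% and 68.6%. These shares and the sizes of the steps are in log2 of the mean CPM plus a constant, which weighs most on genes with low levels. The step from 8 to 11 hpf was the largest for 53.8% of risers and 61.1% of fallers, the step from 14 to 18 hpf for 34.6% and 29.5%, and the middle step for 11.6% and 9.45%. These genes were chosen by the 8 and 18 hpf libraries, which also enter the first and last steps. That choice can enlarge those steps against the middle one. The last step also spans more time than the others. The gene pou5f3 was an early loss, at 12.4 and 21.2 CPM by 11 hpf and 7.86 and 5.47 CPM at 14 hpf. The gene hbbe3 was a late gain, at 0 CPM at 11 hpf and at 0 and 0.759 CPM at 14 hpf. BHIKHARI_I-int made its steepest fall by 11 hpf, to 108 and 161 CPM, and BHIKHARI_LTR was at 436 and 322 CPM then. ERV1-N8-I_DR reached 2250 and 2440 CPM at 14 hpf and its 14 and 18 hpf libraries overlapped.

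**Figure D4:**
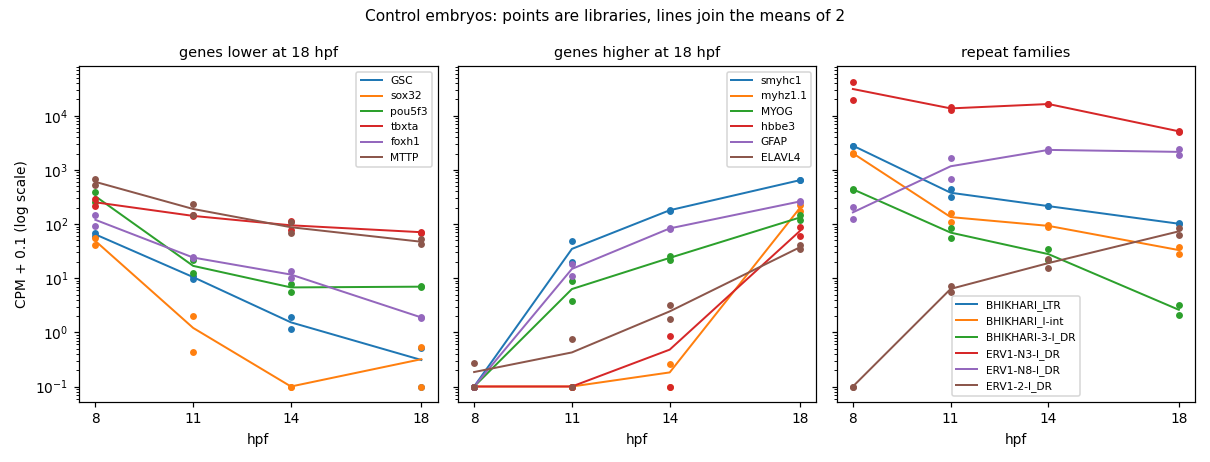
CPM + 0.1 on a log scale (y axis) against hpf (x axis) in the Control libraries for 6 genes lower at 18 hpf, 6 genes higher at 18 hpf and 6 repeat families. Points are single libraries and lines join the means of 2. pou5f3 drops by 11 hpf and levels off at 6.8 and 6.96 CPM, myhz1.1 and hbbe3 appear between 14 and 18 hpf, and the BHIKHARI families fall while ERV1-N8-I_DR and ERV1-2-I_DR climb.

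The same span was measured in embryos injected with Bik-1 LNA, in 4 libraries other than those compared in Control. Both spans share the filter and the spread estimated from all 16 libraries. Differences between replicates 1 and 2 at 8 hpf were also correlated between Control and Knockdown (0.321), so the spans may not be fully separate. In the Knockdown span 9992 genes passed (59.1%) and 4694 changed over 2-fold (27.8%), 3405 (20.2%) higher and 1289 (7.63%) lower. Of the families 74 (8.58%) changed over 2-fold there, 27 (3.13%) higher and 47 (5.45%) lower. Of the Control genes over 2-fold higher 2929 were so in Knockdown too, which is 82.7% of the Control list and 86.0% of the Knockdown list. Of those lower it was 1009, or 66.2% and 78.3%. No gene changed over 2-fold in opposite directions. Across the 16894 genes the log2 fold changes of the spans had a Pearson correlation of 0.915, and across the 862 families of 0.862, which describes features that are not independent replicates, measured in different libraries for each span. The difference between the spans was tested for every feature, and edgeR called 0 genes and 0 families, with 997 genes and 25 families at an unadjusted p under 0.05. DESeq2 called 11 genes.

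The lowest adjusted p of that test was 0.058, for GID8 (ENSDARG00000037589). Its level fell in both spans, from 275 and 269 CPM at 8 hpf to 49.8 and 51.1 later in Control (log2 fold change -2.43), and by 1.12 on the log2 scale in Knockdown. BHIKHARI_LTR fell by 4.79 in Control and by 4.33 in Knockdown on the log2 scale, and the difference did not pass (adjusted p = 0.86). SOX2, SCRIB and CDH2, which did not pass in Control, had log2 fold changes of 0.71, 0.86 and 0.40 over the Knockdown span, and for none of them did the difference pass (adjusted p = 0.59, 0.22 and 0.69). In Knockdown, too, smyhc1 went from 0 CPM in both libraries of 8 hpf to 552 and 574 CPM at 18 hpf, and myl13 from 0 to 286 and 255 CPM.

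**Figure D5:**
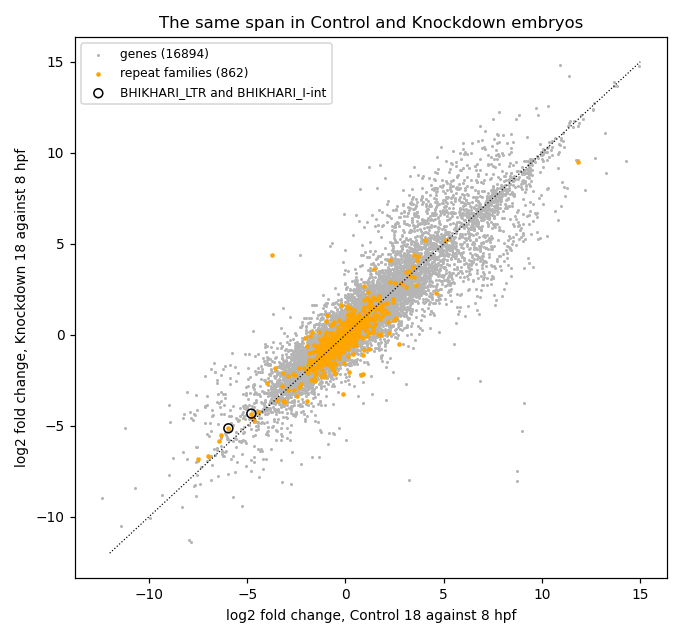
Log2 fold change from 8 to 18 hpf in Knockdown (y axis) against Control (x axis) for 16894 genes (grey) and 862 repeat families (orange), with the line of equal change dotted and both BHIKHARI parts circled. The points follow the line, with a Pearson correlation of 0.915 across genes and 0.862 across families. Genes with 0 counts in a group sit at fitted values that depend on the prior count.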

How the data were processed

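Polyadenylated RNA of whole zebrafish embryos was sequenced from a directional library kit, per the labels' protocols. The deposited table holds raw counts per gene and per repeat family for 16 libraries. Per the submitters' processing notes, STAR and the genome build GRCz11 were used. The version of STAR, the counting tool, its strand setting and the treatment of multiply mapped reads are not given in the labels used here. Such reads can decide the counts of repeat families and of paralogs, and overlapping antisense genes cannot be told apart if strand was not used. Symbols were matched to Ensembl IDs, and a symbol carried by several genes is printed with its ID.

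All 16 libraries in 8 groups were fitted with edgeR 4.0.16 in R 4.3.3 (TMM scaling, filterByExpr, robust quasi-likelihood, 8 residual degrees of freedom, common coefficient of variation 0.177). Genes and families were adjusted together by Benjamini-Hochberg over 17756 features. Changes over 2-fold were tested with glmTreat at a log2 threshold of 1. The median SE of a log2 fold change was 0.35. Replicates disagreed more at 8 hpf than at 18 hpf, although the fit gave each feature 1 spread for all groups. Chi-square per degree of freedom, against counting error alone, was 13.3 in Control and 35.3 in Knockdown at 8 hpf. At 18 hpf it was 4.94 and 4.55. In each library the tested features held at least 99.76% of counts. The fit was tested on simulated data with known changes, in 50 features at each fold. Of these, 2% were called at 1.5-fold, 54% at 2-fold, 86% at 4-fold and 92% at 8-fold. The over-2-fold rule found 52% at 4-fold and 82% at 8-fold. Of 17037 unchanged features, 4 were called. Changed features were drawn only from those well counted at 8 hpf, so the shares found do not cover features with few counts. The counts were simulated with the fit's own spread, so the 4 false calls do not test that spread. Far fewer features changed there than in the embryos, so scaling under changes this broad was not tested. Intervals and bounds cover counting error only.

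Gene lists and named genes were chosen with earlier results of these data known. Named genes were first the 12 largest rises and falls over 2-fold, by fitted log2 fold change, with at least 10 CPM. These 12 also needed libraries that did not overlap and a symbol other than a clone or accession name. Named as well were the largest called changes of each list with at least 2 CPM and members that did not pass. So were the largest family changes, every BHIKHARI family and the features with most counts. Those with the lowest p for a difference between Control and Knockdown were added. Alternatives were other scalings, no filter, genes only, fewer libraries, a replicate block, DESeq2 1.42.0 and leaving out each library. No sequences are shown. Some genes and a gene list that were tested are not reported here.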

Additional observations from a re-analysis of the deposited data

How the results depend on the processing

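No gene or family that is named and passed, and no balance of called genes in Control or in Knockdown, turned its direction under the alternatives tried. The balance of families did: 126 higher and 176 lower became 123 and 112 without Control 18 hpf replicate 1, and their median of -0.044 became 0.012 with library totals. The count of called genes, 10356, ranged from 9740 with DESeq2 to 10706, and from 8351 to 9380 with 1 library left out. Called families, 302, ranged from 274 to 318, and from 202 to 254 with 1 library left out. Testing the 2-fold threshold with DESeq2 gave 3258 genes and 38 families in Control and 3126 genes in Knockdown, and with 1 library left out the ranges were 3671 to 4570 genes, 42 to 67 families and 3621 to 4361 genes. The cause was not tested. The 0 genes that differed between the spans became 1 with library totals alone, 106 with no filter beyond 1 count, 1 with the 8 libraries of 8 and 18 hpf, 11 with DESeq2, and 0 to 3 with 1 library left out. As a percentage of family counts, the LTR class changed by -26.6 points, DNA transposons by 22.2 and LINEs by 1.92, in place of -4.41, -0.055 and 0.0035 of all counts, so that DNA transposons turned direction, as did LINEs without their family with most counts (-0.016). Without its family with most counts, the LTR class changed by -1.97 points. The median log2 fold change of genes was 0.119 with TMM, 0.156 with RLE and 0.177 with library totals. A lone library left in a group was assumed to vary like the other groups.

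With the replicate number as a block (replicate block), 10706 genes and 318 families passed, 5335 genes and 71 families changed over 2-fold in Control and 4847 genes in Knockdown, and 2 genes differed between the spans. Same-numbered libraries of Control 8 and 18 hpf had deviations correlated at 0.051, and those of Knockdown at 0.104, and Control and Knockdown libraries of the same time at 0.321 (8 hpf), 0.495 (11 hpf), 0.163 (14 hpf) and 0.075 (18 hpf). Not every pair was over 0.1, so the numbers were not taken to pair the libraries. The values of 0.321 and 0.495 were the highest of all pairs of groups. The block was 1 term for all times. Neither it nor the test of the difference between the spans allowed for a pairing within a time.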

Other observations

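The genes with the most counts were not those with the largest changes. The 10 genes with most counts held 6.72% and 7.40% of scaled counts at 8 hpf and 6.98% and 7.31% at 18 hpf. cirbpb, a cold-inducible RNA-binding protein, had 5530 and 6870 CPM at 8 hpf and 3060 and 2520 at 18 hpf (log2 fold change -1.15, SE 0.12, adjusted p = 6.5e-07). hmgn1a, a nucleosome-binding protein, had 6210 and 6170 CPM at 8 hpf and 3970 and 3930 at 18 hpf (log2 fold change -0.65, SE 0.11, adjusted p = 8.5e-05). YBX1, a binder of maternal and other mRNAs, did not pass, at 4840 and 4890 CPM at 8 hpf and 4060 and 4070 at 18 hpf (adjusted p = 0.087). Among the leading genes of 18 hpf were the chaperones HSPA8 (ENSDARG00000068992) and HSP90AB1. HSPA8 (ENSDARG00000068992) had 3680 and 4090 CPM at 8 hpf and 7180 and 6960 at 18 hpf (log2 fold change 0.86, SE 0.09, adjusted p = 9.6e-07) and HSP90AB1 had 2640 and 2730 CPM at 8 hpf and 5520 and 5870 at 18 hpf (log2 fold change 1.08, SE 0.10, adjusted p = 1.9e-07). Adjusted p-values are from edgeR's quasi-likelihood test, and the libraries of the times did not overlap for any gene said here to have an adjusted p under 0.05.

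Some genes of the gastrula libraries had 0 counts at 18 hpf. fgl1, of the fibrinogen-like family, had 6.86 and 5.94 CPM at 8 hpf and 0 in both at 18 hpf (at least 25.1-fold lower at 18 hpf, adjusted p = 0.00023). nlrp12l2, named as a member of the NLR family of intracellular sensors, had 6.54 and 5.43 CPM at 8 hpf and 0 in both at 18 hpf (at least 23.5-fold lower at 18 hpf, adjusted p = 0.00013).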
